A study of Mus musculus with 4 samples.

Results

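The TALE homeobox cofactors of the Hox proteins, taken as Meis1, Meis2, Meis3, Pbx2, Pbx3, Pbx4, Pknox1 and Pknox2, were read in 2 sorted fractions of differentiating mouse embryonic stem cells. The 8 genes were chosen by family, and every probe whose RefSeq accession maps to one of them was used. They had 11 probes, of 20660 genes that could be named on the array. The cells came from the mouse embryonic stem cell line EB5, into which a reporter of Hoxb6 that makes red fluorescent protein (RFP) had been put, after 6 days of culture on OP9, a mouse stromal cell line used as a feeder. Sorting kept cells that stained for Flk-1, the VEGF receptor encoded by Kdr, and divided them by the reporter into an RFP-positive and an RFP-negative fraction. Of each fraction, 2 RNA samples were read on one-colour arrays. Both fractions thus shared the parental line, the reporter, the feeder, the day and the Flk-1 gate. The labels number the arrays of a fraction 1 and 2 without naming separate cultures, so the spread between them may be technical. How the reporter was built and whether the line was 1 clone are not given in the sources used here.

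TALE proteins are homeodomain factors with extra residues in a loop of the homeodomain. Pbx proteins bind DNA together with Hox proteins and sharpen the sites that Hox proteins choose. Meis and Pknox proteins (Pknox is also called Prep) bind Pbx through their amino-terminal part, help to hold it in the nucleus and can join the Hox and Pbx complex. In mesoderm and blood these factors are known above all through Meis1, which the mouse embryo needs for definitive haematopoiesis, and through Pknox1, whose loss or reduction disturbs the early embryo, blood formation and vessels.

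Values are log2 signals relative to the 75th percentile of the array, and every difference is the RFP-positive mean less the RFP-negative mean. Signals of different probes are not compared in level, because probes differ in how brightly they hybridise. A signal counts as measured where the scanner marked it well above background. On that mark 7 of the 8 genes were measured on all 4 arrays, and Pbx4 on 1 array of each fraction. Between 55.2% and 59.3% of the spots were well above background on each array and 0 spots were saturated. Kdr was strong on all 4 arrays, between 4.18 and 4.41. Hoxb6 was measured on 0 of the 4 arrays, so the reporter could not be checked against its own transcript. RFP-positive replicate 2 stood apart, with correlations across genes of at most 0.964 with the other arrays, against 0.974 to 0.982 among those 3.

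Of the members, 3 had fractions that did not overlap: Meis2, higher in RFP-positive cells, and Pbx2 and Pknox1, lower. None passed the test. In the limma fit, adjusted by Benjamini-Hochberg over the 13430 genes tested, 0 of the 7 members tested passed an adjusted p of 0.05, as did 0.0% of all genes. At an unadjusted p under 0.05 there were also 0 members, against 6.49% of all genes (871 genes). Of all genes tested, 40.3% had fractions that did not overlap, and 39.4% of those measured on all 4 arrays, so 3 of 7 is near the background. In the higher direction 1 member compares with 18.8% of genes, and in the lower direction 2 members compare with 21.6%. No member had every RFP-positive array at least 2-fold from every RFP-negative array, which 1.36% of genes had. The median difference of the 7 members was −0.04, beside −0.05 over all genes tested. With 2 arrays against 2, an exact two-sided permutation test of a single gene cannot go below p = 0.333.

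The RefSeq promoter table held 5 of the 8 members. The 250 bases before the start of Meis2 and Pbx2 are shown because these are the members with a table entry whose fractions did not overlap, in opposite directions. Capitals mark the core TGAT, which Pbx proteins read, on the strand of the gene or the reverse strand. The windows are of build GRCm38.p6, 5′ to 3′ on the strand of the gene. The Meis2 window is chr2:116064620-116064869 on the minus strand and the Pbx2 window is chr17:34592009-34592258 on the plus strand.
Meis2: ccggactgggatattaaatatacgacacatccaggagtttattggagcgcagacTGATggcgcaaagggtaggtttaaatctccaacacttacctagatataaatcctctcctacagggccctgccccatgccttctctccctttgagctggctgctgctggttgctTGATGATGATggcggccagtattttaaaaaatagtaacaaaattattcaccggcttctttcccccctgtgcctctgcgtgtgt
Pbx2: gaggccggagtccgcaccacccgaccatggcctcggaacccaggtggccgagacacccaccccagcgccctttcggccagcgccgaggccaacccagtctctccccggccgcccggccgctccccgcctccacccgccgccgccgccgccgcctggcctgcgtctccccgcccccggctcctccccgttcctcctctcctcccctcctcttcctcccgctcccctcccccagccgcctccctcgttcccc
The Meis2 window held 4 matches to TGAT, 3 of them run together, and the Pbx2 window held 0. Among the other members in the promoter table, Pbx4 held 3 matches and Meis1 and Meis3 each held 0. A relation of the matches to the direction of a difference was not tested. Of 32851 promoter windows of this length, 68.7% held at least 1 match. GC content was 47.6% for Meis2 and 77.6% for Pbx2, beside a median of 52.4% over all windows. The Meis hexamer TGACAG (15.9% of windows) and the Pbx and Hox octamer TGATNNAT (7.68%) were also searched on both strands. Each octamer holds a TGAT. Neither of these longer motifs was found in the windows of Meis1, Meis2, Meis3, Pbx2 or Pbx4, which says only that the letters are not in these 250 bases.

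The Meis genes come first. Like the Pknox proteins, Meis proteins can join Pbx and Hox on DNA. Meis1, also a cofactor of Hoxa9 in leukaemia, was at 2.20 and 2.13 on RFP-negative replicates 1 and 2 and at 2.12 and 2.71 on RFP-positive replicates 1 and 2. The signal was high on RFP-positive replicate 2 alone, and the other 3 arrays lay between 2.12 and 2.20. The difference was 0.25 (limma SE 0.29, 95% interval −0.51 to 1.01, adjusted p 0.820), a 1.19-fold change. Without RFP-positive replicate 2 it was −0.044, and without RFP-positive replicate 1 it was 0.54, so that 1 array set the direction.

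Meis2, known for its part in cranial and cardiac neural crest, was at 0.54 and 0.37 on the RFP-negative arrays and at 0.83 and 1.05 on the RFP-positive arrays. Both RFP-positive arrays lay above both RFP-negative arrays, with a gap of 0.29 between the nearest. The arrays of a fraction were 0.17 apart in RFP-negative and 0.22 apart in RFP-positive cells. The difference of 0.49 (limma SE 0.24, 95% interval −0.14 to 1.11, adjusted p 0.750) was 1.40-fold, the largest in size of the 7 members tested. Of the 12420 genes measured on all 4 arrays, 23.2% differed by more than Meis2 in either direction.

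Meis3, a relative best known from patterning of the hindbrain in fish and frogs, had 3 probes under the same accession, NM_008627, and they disagreed. The brightest, A_55_P2005248, stands for the gene in the test. It was at 1.94 and 1.38 on the RFP-negative and at 1.87 and 2.0 on the RFP-positive arrays, so that the fractions overlapped and RFP-negative replicate 2 alone was low. Its difference was 0.28 (limma SE 0.29, 95% interval −0.47 to 1.03, adjusted p 0.803). Without RFP-negative replicate 2 the difference was −0.00030, and without RFP-negative replicate 1 it was 0.56.

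The other probes of Meis3 lay lower in RFP-positive cells, without overlap. A_55_P2136101 was at 1.41 and 1.52 on the RFP-negative and at 0.97 and 1.31 on the RFP-positive arrays, a difference of −0.32 (limma fit over probes, SE 0.27, adjusted p 0.794). A_55_P2185940 was at −0.61 and −0.88 and at −1.11 and −1.51, a difference of −0.56 (limma fit over probes, SE 0.29, adjusted p 0.780). The first was −0.15 without RFP-positive replicate 1, and the second was −0.32 with normexp background correction and −0.37 without RFP-positive replicate 2. Read only for its change between the fractions, the log2 ratio of the brightest probe to A_55_P2185940 within an array was higher by 0.84 in RFP-positive cells, and that to A_55_P2136101 by 0.60, both without overlap. These shifts restate the probe differences above, and whether the probes changed unequally was not tested. The sign of the Meis3 difference depends on which probe is read. With the mean of the 3 probes it was −0.20. Over the 30516 probes tested, 39.3% had fractions that did not overlap, and 5 of the 10 member probes tested did. None of the 10 passed an adjusted p of 0.05, as did 0.0% of all probes.

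**Figure D1:**
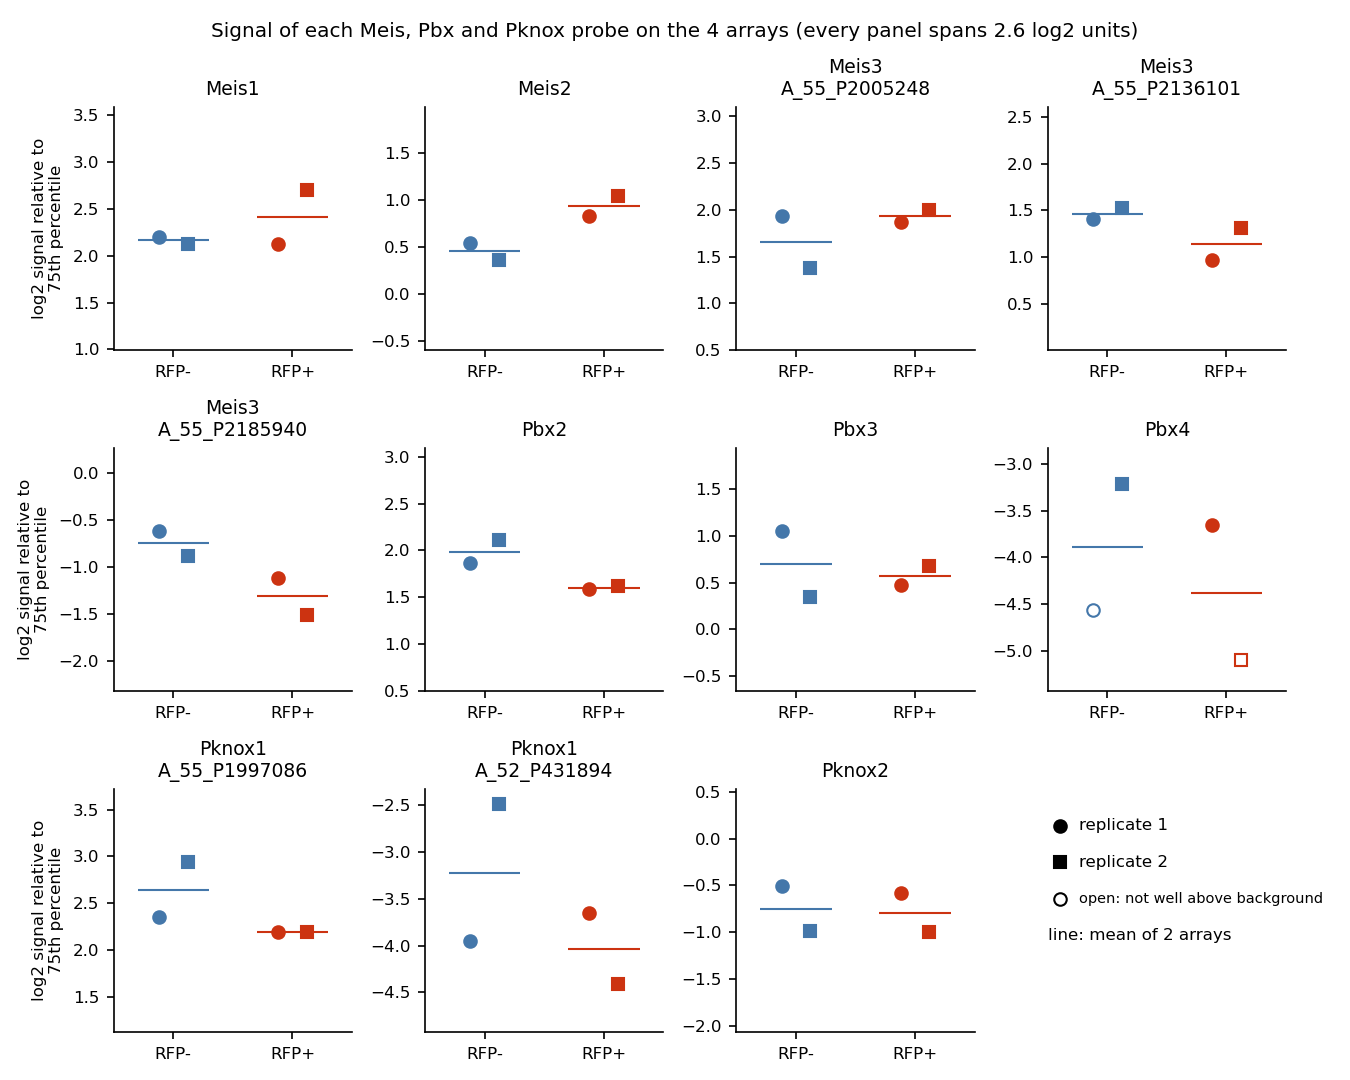
Log2 signal relative to the array's 75th percentile (vertical axes) for the 11 probes of the 8 genes, with each fraction's arrays side by side, circles for replicate 1, squares for replicate 2, a line for the mean of the 2 arrays, and open symbols where the signal was not well above background. Meis2 lies higher on both RFP-positive arrays, the 3 Meis3 probes differ in direction, and Pbx4 has an open symbol in each fraction.

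Among the Pbx genes, which encode the direct partners of Hox proteins, Pbx2 was at 1.86 and 2.11 on the RFP-negative arrays and at 1.58 and 1.62 on the RFP-positive arrays. Both RFP-positive arrays lay below both RFP-negative arrays, the nearest arrays differing by −0.24. Pbx2 fell short of the threshold at a difference of −0.38 (limma SE 0.24, 95% interval −0.998 to 0.23, adjusted p 0.751), or 1.31-fold higher in RFP-negative cells. The RFP-positive arrays were 0.04 apart. Mice without Pbx2 are known to be overtly normal, which is usually laid to the other Pbx proteins.

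Pbx3, which joins Meis1 and Hoxa9 in leukaemia, was at 1.05 and 0.35 on the RFP-negative and at 0.48 and 0.67 on the RFP-positive arrays. The RFP-positive values lay between the RFP-negative ones. The difference was −0.13 (limma SE 0.32, 95% interval −0.97 to 0.72, adjusted p 0.914), and it was 0.23 without RFP-negative replicate 1 and −0.48 without RFP-negative replicate 2.

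Pbx4, in the adult mouse a gene of the testis, was near background. Its signal was −4.56 on RFP-negative replicate 1, −3.21 on RFP-negative replicate 2, −3.65 on RFP-positive replicate 1 and −5.10 on RFP-positive replicate 2. RFP-negative replicate 2 and RFP-positive replicate 1 were well above background and the other arrays were not, where the lowest signals well above background were −4.00 and −4.54. It was not tested and no fold is given.

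Pknox1 had 2 probes. The brighter one, A_55_P1997086, was at 2.35 and 2.94 on the RFP-negative arrays and at 2.20 and 2.19 on the RFP-positive arrays. The fractions did not overlap, but the nearest arrays of the fractions differed by −0.15 and the RFP-negative arrays by 0.60. Its difference was −0.45 (limma SE 0.29, 95% interval −1.22 to 0.31, adjusted p 0.753), which is 1.37-fold higher in RFP-negative cells. Without RFP-negative replicate 2, the highest array, it was −0.15, and without RFP-negative replicate 1 it was −0.75.

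The second Pknox1 probe, A_52_P431894, was dim, at −3.95 and −2.48 on the RFP-negative and at −3.65 and −4.41 on the RFP-positive arrays. Its fractions overlapped, and its difference of −0.81 (limma fit over probes, SE 0.59, adjusted p 0.785) had the sign of the brighter probe. It was −0.08 without RFP-negative replicate 2, −1.55 without RFP-negative replicate 1, −0.43 without RFP-positive replicate 2 and −0.35 with normexp, so 1 array carried much of it. RFP-negative replicate 2 was the highest array on both probes. Pknox2, the less widely expressed relative, was at −0.51 and −0.99 on the RFP-negative and at −0.58 and −0.998 on the RFP-positive arrays. In each fraction replicate 1 was above replicate 2, and the difference of −0.04 (limma SE 0.30, 95% interval −0.83 to 0.75, adjusted p 0.969) was the smallest of the 7.

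**Figure D2:**
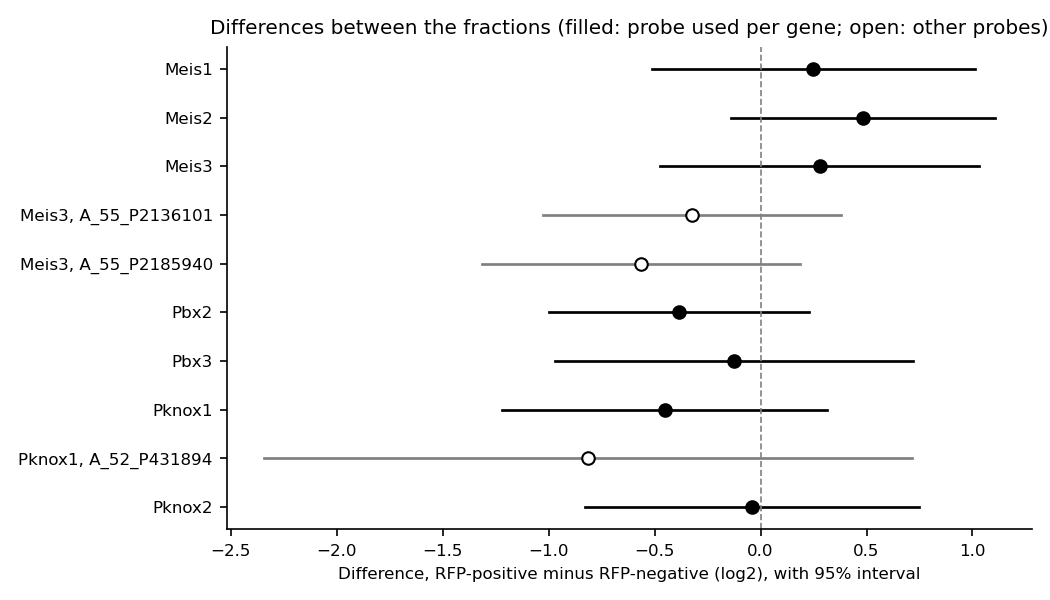
Differences between the fractions (log2, horizontal axis) with limma's 95% intervals for the 7 genes tested (filled points) and the 3 further probes of Meis3 and Pknox1 (open points, from the fit over probes). Every interval includes 0, from Meis2 at 0.49 to the second Pknox1 probe at −0.81.

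The 7 intervals are wide, because there were 2 arrays per fraction. They reach up to 1.11 (Meis2) and down to −1.22 (Pknox1), and changes within them are not excluded. The intervals are not adjusted for the number of genes, so they do not mark the smallest change that could be detected. The smallest adjusted p of any gene in the limma fit was 0.110. For Meis1, Meis3, Pbx3 and Pknox2, leaving out 1 array turned the sign. For Meis2, Pbx2 and Pknox1 it did not, which follows from fractions that do not overlap. With 1 array left out, their differences ran from 0.37 to 0.60 for Meis2, from −0.51 to −0.26 for Pbx2 and from −0.75 to −0.15 for Pknox1.

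**Figure D3:**
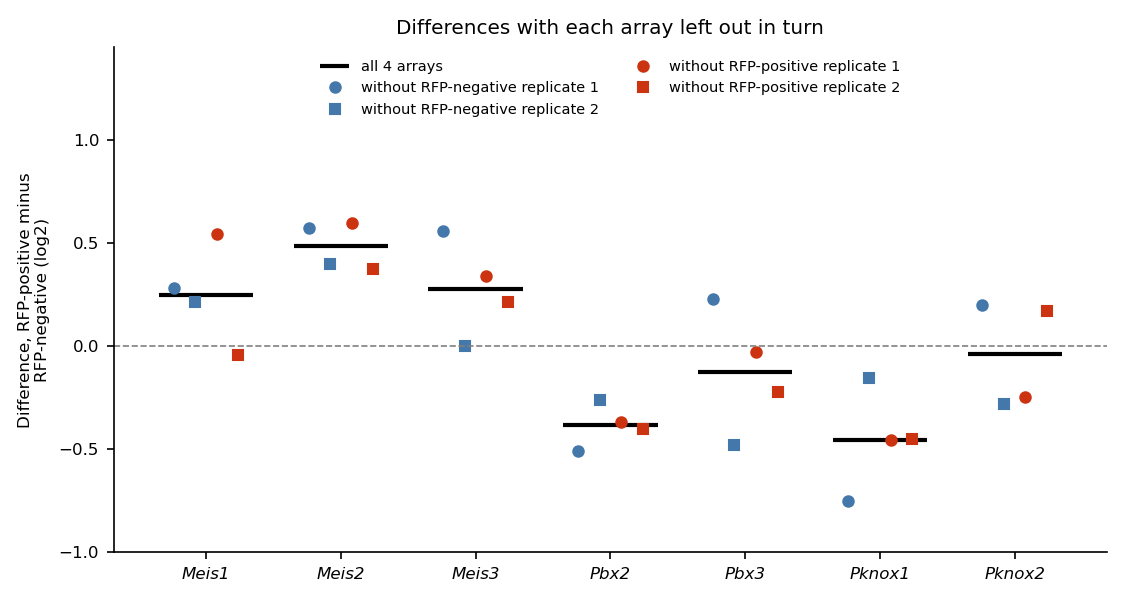
Difference between the fractions (log2, vertical axis) for the 7 genes tested, from all 4 arrays (bar) and with each array left out (symbols). The symbols of Meis1, Pbx3 and Pknox2 lie on both sides of 0, Meis3 touches 0 without RFP-negative replicate 2, and those of Meis2, Pbx2 and Pknox1 lie on 1 side.

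Related genes were then read from lists chosen by function. Of 9 other TALE genes, the Tgif, Irx and Mkx genes, 7 were tested and 0 passed an adjusted p of 0.05, with 3 higher and 2 lower without overlap (background 40.3% in either direction) and a median difference of 0.22. Mkx, a tendon regulator, was at −2.28 and −1.33 on the RFP-negative and at −1.01 and −0.42 on the RFP-positive arrays, a difference of 1.09 (limma SE 0.43, adjusted p 0.745). That was 0.61 without RFP-negative replicate 1 and 0.62 with normexp. Irx4, a gene of the cardiac ventricle, was at −3.28 and −0.98 and at −3.68 and −4.71, with RFP-negative replicate 2 far above the rest and RFP-positive replicate 2 not well above background. Irx4, 1 of the 2 lower genes, thus entered the test through the RFP-negative fraction alone, where it is high, which favours a lower value in RFP-positive cells. Its difference of −2.06 (limma SE 0.84, adjusted p 0.745) was −0.91 without RFP-negative replicate 2, −3.21 without RFP-negative replicate 1 and −0.80 with normexp background correction. Tgif2, which encodes a repressor of TGF-beta signalling, differed by 0.45 (limma adjusted p 0.753), by 0.15 without RFP-positive replicate 2, by 0.74 without RFP-positive replicate 1 and by 0.05 with the mean of its probes.

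Of 11 genes for proteins that bind Pbx or Meis or act with them, among them histone acetyltransferases, deacetylases and corepressors, all were tested and 0 passed. The median difference was −0.10, and 1 was higher and 2 were lower without overlap, where 18.8% and 21.6% of all genes tested were. Pbxip1, whose product binds Pbx proteins and keeps them from DNA, was at 1.13 and 1.20 on the RFP-negative and at 0.91 and 0.78 on the RFP-positive arrays, a difference of −0.32 (limma SE 0.23, adjusted p 0.762), or −0.13 with the mean of its probes. Crtc1, a coactivator of CREB, differed by −0.58 (limma adjusted p 0.750), by −0.27 without RFP-positive replicate 2, by −0.88 without RFP-positive replicate 1 and by −0.32 with normexp. For Ep300, the acetyltransferase p300, the difference was −0.40 (limma adjusted p 0.766), the fractions overlapped, and it was −0.069 without RFP-positive replicate 2.

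Among 15 genes known as targets of Meis, Pbx or Hox complexes, 13 were tested, 0 passed and the median difference was 0.02. Without overlap 1 was higher and 1 was lower, where 18.8% and 21.6% of all genes tested were. In the limma fit 1 gene had an unadjusted p under 0.05, which 6.49% of all genes tested had. That gene was Myb, a regulator of blood progenitors, at −3.61 and −2.76 on the RFP-negative and at −2.35 and −1.44 on the RFP-positive arrays (limma adjusted p 0.745). RFP-positive Myb signals were both above the RFP-negative ones, and 3 of the 4 arrays measured it. The lowest signal was on RFP-negative replicate 1. To be tested, a gene had to be well above background on both arrays of a fraction, so Myb passed through 1 fraction alone. The unadjusted p and the lack of overlap of Myb are therefore not independent of that filter. Its difference of 1.29 was 0.83 without RFP-positive replicate 2 and 0.31 with normexp. Flt3 overlapped between the fractions at a difference of −0.47, and Trib2 was at −0.29, with fractions that only just did not overlap, and at −0.07 without RFP-positive replicate 2. Of 39 Hox genes, the DNA partners of these cofactors, 16 were tested and 0 passed, with a median of −0.15. Of the 16, 1 was higher and 3 were lower without overlap, beside the same 18.8% and 21.6% of all genes. In the limma fit 3 of them had an unadjusted p under 0.05 (6.49% of all genes), namely Hoxc4, Hoxc5 and Hoxc8. Hoxc4 was measured on the RFP-positive arrays alone and Hoxc8 on the RFP-negative arrays alone. Each thus passed the filter through the fraction where it is high, which favours a difference in that direction but does not set its size. The difference was 4.58 for Hoxc4 (1.58 with normexp) and −0.79 for Hoxc8 (−0.28 with normexp). Both rest on signals not well above background in the other fraction.

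Genes with the profile most like each member over the 4 arrays were found by the Euclidean distance between centred log2 values, among 12016 other genes measured on all arrays, those with Riken, Gm or LOC names left out. Over 4 arrays such likeness is common. Between 0.999% of genes (for Pbx3) and 4.44% (for Meis1) had a Pearson correlation above 0.95 with a member. The 3 nearest were Copg1, L1td1 and Tiam1 for Meis1, at distances from 0.04 to 0.05. Nearest to Meis2 were Zbtb45, Ube2o and Pan3, from 0.02 to 0.04, and to Meis3 Prodh, Btbd7 and Pms2, from 0.04 to 0.06. Slc6a8, Kif17 and Sfxn3 were nearest to Pbx2, at 0.04, and Trp53rkb, Rbpjl and Lamb2 to Pbx3, from 0.03 to 0.07. For Pknox1 they were Pdcd11, Tmprss9 and Flrt2, from 0.05 to 0.07, and for Pknox2 Tk1, Pank1 and Dph1, from 0.02 to 0.05. No member was among the 3 nearest of another.

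Marker genes of other cells were read beside these values, and of all genes tested 18.8% were higher and 21.6% lower without overlap. The 8 adipocyte markers, all measured on 4 arrays, were all lower in RFP-positive cells without overlap, and their summed signal was 48.6 and 58.6 times the 75th percentile on the RFP-negative against 20.2 and 14.7 on the RFP-positive arrays. Of 12 stromal and fibroblast markers, 10 were tested and 7 were lower without overlap. Dcn and Postn were not measured on any array. The summed stromal signal was 219.8 and 246.8 in RFP-negative and 201.7 and 198.0 in RFP-positive cells. Endothelial markers summed to 52.2 and 51.9 in RFP-negative and 61.2 and 81.1 in RFP-positive cells, with 6 of 8 higher without overlap. Of the other 8 marker lists, summed signals were higher in RFP-positive cells without overlap for haematopoietic progenitors, erythroid cells, cardiac mesoderm and paraxial and caudal mesoderm, and lower for neural ectoderm. The sums overlapped for macrophages, endoderm and pluripotent cells. In these lists 1 of 4, 2 of 5 and 1 of 3 markers tested were lower without overlap, and 0 were higher. Bright genes weigh most in a sum, and single genes did not all follow it. Of 8 haematopoietic progenitor markers tested, 4 were higher and 1 was lower without overlap. For paraxial and caudal mesoderm 2 of 5 were higher and 2 lower. Without overlap, 1 of 4 erythroid and 3 of 6 cardiac markers were higher, and 2 of 4 neural markers were lower. None of these lists' differences passed for a single gene, as 0 genes passed in all. The part of these cells in the signals of Meis2, Pbx2 and Pknox1 was not tested. In a sorted population, fewer cells of a type and less RNA per cell cannot be told apart.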

How the data were processed

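Total RNA of the 2 sorted fractions was measured on 4 one-colour arrays on 1 slide. The intensity values are processed signals that the authors deposited, and per the file headers the scanner software was Agilent Feature Extraction 10.10.1.1. The deposited value table is the same intensity times 1 constant per array. Control spots (3671 of 62976) and outlier spots (115 to 153 per array) were left out, log2 of the signal minus that of the array's 75th percentile was taken, and spots of a probe were averaged. Probes were named through RefSeq accessions in a table of assembly GRCm38 (27235 of 55681 had 1 symbol, 28446 none). A gene's brightest probe stood for it, and was tested if well above background on both arrays of a fraction. Genes, and separately probes, were fitted with limma 3.58.1 (R 4.3.3), two-sided, with Benjamini-Hochberg adjustment, 2 residual and 2.77 prior degrees of freedom. On simulated data with independent noise, the mean estimate of the fit was checked against the change put in. That check does not show how often real changes would be detected. Members and lists were chosen with earlier results of these data known. Named genes are the members, up to 3 of smallest p per list, Kdr, Hoxb6 and the 3 genes nearest in profile to each member. The number of arrays limits the precision.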

Additional observations from a re-analysis of the deposited data

How the results depend on the processing

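Under 13 alternatives (other scalings and background corrections, the deposited value table, other filters, the mean of probes, trend with robust eBayes, the replicate number as a block, and each array left out) 0 members passed an adjusted p of 0.05 and 0 were at least 2-fold apart. The smallest adjusted p of a member gene or probe was 0.282. Meis2, Pbx2 and Pknox1 kept their sign in all 13. The Meis3 difference turned to −0.22 with normexp, where another probe was the brightest, and to −0.20 with the mean of probes. Pknox2 turned to 0.044 with median scaling, which moves all genes by 0.08. With 1 array left out, differences ran from −0.044 to 0.54 for Meis1, −0.00030 to 0.56 for Meis3, −0.48 to 0.23 for Pbx3, −0.28 to 0.20 for Pknox2 and −0.97 to 0.031 for Flt3. The median of the members ran from −0.15 to 0.23, the latter without RFP-negative replicate 1. The count of members without overlap ran from 4 to 6 with 1 array left out, because 3 arrays separate more easily. Of all genes tested, between 65.3% and 81.3% then had fractions that did not overlap, so these counts are near the background. The count of all genes at an unadjusted p under 0.05 was 2752 without RFP-positive replicate 1 and 386 without RFP-negative replicate 2, against 871. Same-numbered arrays had deviations that correlated at 0.09 across genes, and with 2 pairs this does not show pairing. With the replicate block the median of the members was −0.04, 3 did not overlap, 0 passed, and the members' adjusted p lay between 0.655 and 0.956.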
